A study of Homo sapiens with 3 samples.

Results

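Among the 3′ ends recorded in HEK293T cells, 650 sites held nearly all of their counts at a single nucleotide, and they are called fixed ends here. They were chosen by summing the counts of the 3 libraries, merging positions of a strand within 24 nt of the highest position into a site, and keeping nuclear sites with at least 100 summed counts of which 90% or more lay at 1 position. The merging gave 779809 nuclear sites, of which 24297 reached 100 counts, so 650 of 24297 were fixed ends. The other 23647 sites of at least 100 counts served as the comparison. The share at 1 position and the summed counts chose the members and are given as descriptions.

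HEK293T is an established human embryonic kidney line, and the question of the series was how structure at the ends of mammalian mRNAs bears on their processing and stability. The assay, 2P-seq, reads where an RNA passes into its poly(A) tail. Cells took up 4-thiouridine (4sU), a nucleoside analogue by which RNA made during the labelling can be captured. The groups were RNA captured after 30 min of 4sU, RNA captured after 60 min of 4sU, and the input of the 30 min labelling, whose treatment field reads none. Each group was 1 library of the same line, so no difference has a replicate check and no test across replicates could be made. The labels state that capture replaced the first poly(A) selection in the 4sU libraries, and do not state it for the input. Nuclear counts came to 9652023 at 30 min, 6151986 at 60 min and 32768468 for the input, and levels are given as CPM, each count divided by these totals and scaled to 1000000.

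Most mRNA 3′ ends are made by cleavage downstream of a poly(A) signal, after which poly(A) polymerase adds the tail. Cleavage at one poly(A) site usually falls at several neighbouring nucleotides, so the sequenced ends of a gene form a small cluster. Oligo(dT) priming can also start at a run of adenosines within an RNA, which gives an end that no cleavage made. The tables hold positions and counts without sequence, and no genome of their build was used here, so poly(A) signals and genomic adenosines at the fixed ends were not analysed and no sequence is printed.

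The counts and positions of the fixed ends are described first. The share and the number of positions follow from the rule, so their differences from other sites are not separate findings. Their median summed count was 197.5, with a range from 100 to 4363, against a median of 373 for the other sites. A median of 98.5% of their counts lay at the main position, against 43.8%. The median fixed end had 2 positions with counts, against 15 for the other sites, and 167 fixed ends (25.7%) had every count at 1 position. Plus and minus strands held 325 fixed ends each.

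**Figure D1:**
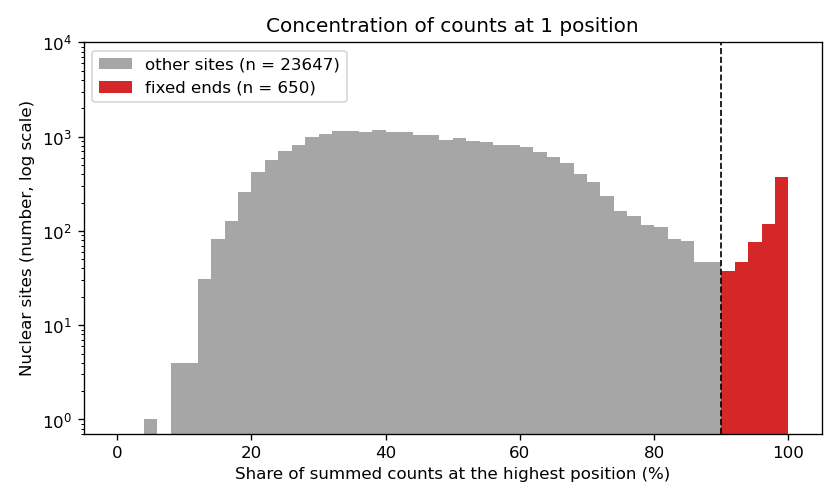
Number of nuclear sites (log axis) by the percent of their summed counts at the highest position, for the 24297 sites with at least 100 counts, with the fixed ends coloured apart. Site numbers fell toward 90%, and the last bars rose again. There were 237 sites from 95 to under 99%, 115 from 99 to under 100% and 167 with every count at 1 position.

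The values at the thresholds show how the rule divided similar sites. The least concentrated member with the most counts was chr3:150302027 on the plus strand, with 90% of its counts at 1 position, where 56 counts came from 4sU 30 min, 16 from 4sU 60 min and 818 from input. Just outside lay chr4:76735364 on the plus strand, with 59, 84 and 1056 counts in the same order. The site chr17:41154970 on the plus strand, with 89.7% at 1 position and 1177, 786 and 29589 counts, was also left out, and it held more counts than any fixed end. At the minimum count, chr22:36663569 on the plus strand entered with 37, 44 and 19 counts, and chr15:93385161 on the minus strand, with 39, 52 and 8 counts, stayed out.

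The concentration was present in each library. Among fixed ends with at least 20 counts in a library, 587 of 615 held 90% or more at the main position at 30 min, as did 570 of 585 at 60 min and 231 of 239 for the input. The library medians of this share were 99.02%, 98.8% and 98.6%. Since all 3 libraries had entered the rule, sites were also chosen from a pair of libraries and then read in the library left out. Of 434 ends chosen without 4sU 30 min and holding 20 counts there, 400 (92.2%) held 90% or more at the same position in 4sU 30 min, against 19 of 18246 other sites (0.104%). Without 4sU 60 min the numbers were 218 of 232 (94.0%) and 34 of 16995 (0.200%). Without input they were 120 of 128 (93.8%) and 33 of 14251 (0.232%). Only these 128 of the 522 ends chosen without input had 20 counts there, so for most of the 522 the input does not show whether the position was the same.

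Fixed ends took a larger share of the labelled libraries than of the input. Their counts summed to 65542 at 30 min, to 103232 at 60 min and to 50349 in input. Of all nuclear counts this made 0.679% at 30 min (95% Clopper-Pearson interval 0.674 to 0.684), 1.68% at 60 min (1.67 to 1.69) and 0.154% for the input (0.152 to 0.155). This order depended on the threshold, since with 80% or more at 1 position the share was 2.28% at 30 min, 3.55% at 60 min and 3.46% for the input. For the 650 ends, the summed level was 4.42-fold the input level at 30 min and 10.9-fold at 60 min. These intervals, and all others given, cover counting error only, because each group was 1 library. Amplified copies of a molecule cannot be told from separate molecules, so the intervals may be too narrow even for counting error.

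Single fixed ends followed the sum. Calls required a CPM ratio of 2-fold or more and an exact 95% Poisson interval of that ratio that left out 1. In 4sU 30 min over input, 552 of 650 fixed ends (84.9%) were higher, where 35.9% of all 24297 sites were, and 34 (5.23%) were lower, where 17.7% of all sites were. In 4sU 60 min over input, 538 (82.8%) were higher against 26.8% of all sites, and 46 (7.08%) were lower against 24.5%. In 4sU 60 min over 4sU 30 min, 396 (60.9%) were higher against 4.74%, and 24 (3.69%) were lower against 18.3%, but many members had passed the minimum through their 60 min counts. Chosen without the 60 min library, 35.4% were higher, and chosen in input alone 5.38%. Both ratios to input share the input library.

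The median log2 ratio of the fixed ends was 4.83 at 30 min over input, 6.74 at 60 min over input and 1.5 at 60 over 30 min. Over all sites the medians were 0.38, -0.03 and -0.35. A count of 0 was set to 3 counts for these medians, which concerned the 39 fixed ends without a count in input. Relative to all sites the fixed ends thus stood 4.46, 6.76 and 1.85 higher, a difference that no scaling of whole libraries can change. The members spread widely around their medians, with quartiles of 2.29 and 5.93 at 30 min and of 2.27 and 7.85 at 60 min.

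These ratios are partly set by the choice of members, because a site rich in any library reaches 100 counts through it. The median fixed end had 59.5 counts at 30 min, 100 at 60 min and 8 from the input. Of the 650, 334 reached 100 counts in 4sU 60 min alone, 176 in 4sU 30 min alone and 110 in input alone. The 4sU 60 min library decided many members. Chosen without it there were 285 fixed ends, whose median log2 ratios were 2.33 at 30 min over input, 2.27 at 60 min over input and 0.33 at 60 over 30 min. Of these 285, 69.1% were higher at 30 min and 64.2% at 60 min than in input. Chosen without 4sU 30 min there were 462, and chosen without input 522.

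Choosing members in 1 library leaves the ratio of the other libraries unused by the rule. In 4sU 60 min alone, 335 of 7413 sites (4.52%) were fixed, and their median log2 ratio of 4sU 30 min to input was 5.46, with 327 (97.6%) higher, against a median of 0.46 for the other sites chosen there. In 4sU 30 min alone, 167 of 11615 sites (1.44%) were fixed, and their median log2 ratio of 4sU 60 min to input was 6.55, with 150 (89.8%) higher, against 0.23. In input alone, 130 of 17536 sites (0.741%) were fixed, and their median log2 ratio of 60 to 30 min was -0.30, against -0.32 for the other sites. The ends chosen in input stood close to other sites in their log2 ratios to input too, at 0.20 for 30 min and -0.15 for 60 min against -0.05 and -0.39, although these ratios use the library of the choice.

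The lists chosen in single libraries overlapped unequally. The 30 and 60 min lists shared 136 positions, which is 81.4% of the 30 min list and 40.6% of the 60 min list. The 30 min and input lists shared 43 positions, 25.7% of the first and 33.1% of the second. The 60 min and input lists shared 29, which is 8.66% and 22.3%. Only 27 positions were on all 3 lists. Each list required 100 counts in its own library, and most fixed ends had fewer than that in input. The overlap of all sites reaching 100 counts was not counted, so these numbers do not show that different ends were fixed in each library.

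**Figure D2:**
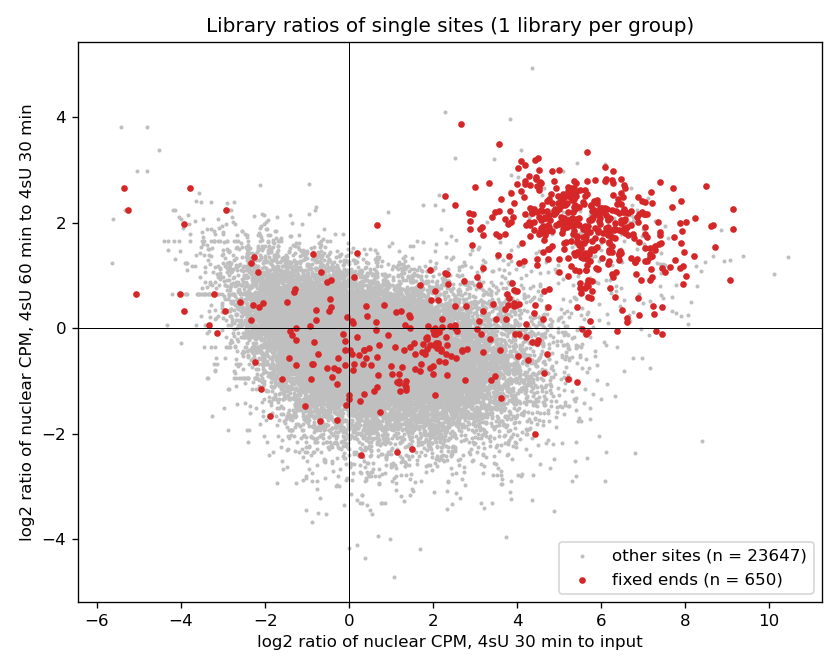
Each point is a nuclear site with at least 100 counts, placed by its log2 CPM ratio of 4sU 30 min to input and of 4sU 60 min to 4sU 30 min, with fixed ends coloured over the other sites. The 353 fixed ends chosen by cutoffs on both axes have medians of 5.67 and 2.01. The remaining 297 have medians of 2.08 and 0.04, against 0.33 and -0.36 for the other sites. Counts of 0 were set to 3.

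By their ratio at 30 min the fixed ends spanned a wide range. There were 155 with a log2 ratio of 6 or more, 256 between 4 and 6, 141 between 1 and 4, 64 between -1 and 1, and 34 below -1. The ends between 4 and 6 had a median log2 ratio of 60 to 30 min of 1.99 and those of 6 or more a median of 1.80, whereas those between -1 and 1 had a median of -0.45. A group of 353 fixed ends was at least 16-fold over input at 30 min and rose at least 2-fold more by 60 min. This group was set apart after its values were seen, and its medians, 5.67 at 30 min and 7.72 at 60 min over input, describe that choice. Its share of nuclear counts was 0.324% at 30 min, 1.23% at 60 min and 0.00606% for the input.

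The same pattern was found at 462 of all 24297 sites, so fixed ends were 353 of them. The other 109 had a median share of 66.0% at the highest position, which is above the 43.8% of other sites in general. The remaining 297 fixed ends had median log2 ratios of 2.08 at 30 min and 1.89 at 60 min over input, and 0.04 between the labelled libraries. At 30 min over input, 199 of these were higher, 34 lower and 64 without a call.

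The ratios changed within a narrow range of concentration. Sites with under 80% of counts at 1 position had median log2 ratios of 30 min to input between 0.16 and 0.41 in every band. The 230 sites from 80 to 85% had a median of 0.34, and the 136 from 85 to 90% had 0.76. The 131 from 90 to 95% had 3.99, the 237 from 95 to 99% had 5.16, and the 167 with every count at 1 position had 4.76. Fixed ends of 100 to under 200 summed counts had a median of 4.64, against 0.67 for other sites of that range. Those of 1000 counts or more had 3.67, against -0.11. These ranges use the summed counts that chose the members, so they do not remove the effect of that choice.

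The fixed end with the highest mean level was chr17:60176976 on the minus strand. The counts there were 459 at 30 min, 2298 at 60 min and 20 for the input, or 47.6, 374 and 0.610 CPM, with 99.5% at 1 nucleotide. Its level was 77.9-fold the input at 30 min (49.9 to 129) and 612-fold at 60 min (395 to 1004). Between the labelled libraries it was 7.85-fold higher at 60 min (7.10 to 8.70), the largest such ratio among members of at least 10 mean CPM. The nearest other site of its strand with 20 counts lay 89186 nt away.

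The same order of libraries held for 7 more of the 10 highest members. The end at chr7:24365192 on the plus strand had 73.7 CPM at 30 min, 318 at 60 min and 6.93 in input, and was 10.6-fold and 45.9-fold over input. The end at chr16:13694299 on the minus strand had 69.4, 258 and 1.01 CPM, and that at chr13:87311457 on the minus strand had 45.0, 227 and 0.824 CPM. The latter stood 961518 nt from the next site of its strand. The end at chrX:9635300 on the plus strand had 47.1, 155 and 0.427 CPM, which was 110-fold over input at 30 min and 363-fold at 60 min. In each of them input was the lowest library and 60 min the highest.

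Of these 8, the ends at chr10:128604006 and chr6:160223631, both on the minus strand, were close to each other in every library. The first had 42.8, 171 and 1.34 CPM and the second 41.6, 167 and 1.10 CPM, in the order 30 min, 60 min and input. Their ratios of 60 to 30 min were 3.99 (3.56 to 4.48) and 4.02 (3.58 to 4.52). The end at chr3:150305231 on the minus strand had 37.7, 154 and 5.16 CPM. At it and at chr6:160223631 every count lay at 1 nucleotide.

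The other 2 of the 10 highest did not rise from 30 to 60 min. At chr4:77223750 on the minus strand all 3459 counts lay at 1 nucleotide, with 142 CPM at 30 min, 115 at 60 min and 42.0 in input. This was 3.38-fold over input at 30 min (3.14 to 3.65) and 2.75-fold at 60 min (2.51 to 3.01). At chr2:52710568 on the plus strand the levels were 116, 93.8 and 28.7 CPM, or 4.06-fold and 3.27-fold over input. Both were called higher than input at 30 and at 60 min and differed by under 2-fold between these. The nearest site to the second on its strand lay 1285770 nt away.

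The largest ratios among members of at least 10 mean CPM rested on 1 or 2 counts in input and are wide. The end at chr8:15060464 on the plus strand had 166 counts at 30 min and 506 at 60 min, against 1 in input, a 564-fold ratio at 30 min with an interval from 99.8 to 22392. The end at chr3:75356724 on the minus strand had 107, 443 and 1 counts. With such input counts the order among the highest ratios cannot be read. The ends at chr6:17646456 and chr4:178480899, both minus, and chr8:11218218, plus, also had 1 count in input, with 159, 120 and 124 counts at 30 min.

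Other ends rose steeply between the labelled libraries. After chr17:60176976, the largest ratios of 60 to 30 min at that level were 7.84 (5.91 to 10.6) at chr12:53642823, minus, and 7.12 (5.05 to 10.2) at chr13:92217262, minus. At chr2:96870292, plus, with 147, 664 and 23 counts, the ratio was 7.09, and at chr7:69515983, plus, with 78, 352 and 3 counts, it was 7.08. The intervals of these 5 overlapped.

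A smaller number of fixed ends was lower in the labelled libraries. Among members of at least 10 mean CPM, the lowest ratio at 30 min was that of chr7:28318619 on the minus strand, whose counts were 222 at 30 min, 158 at 60 min and 3808 for the input, or 23, 25.7 and 116 CPM. It was 5.05-fold lower than input at 30 min (4.41 to 5.81) and 4.52-fold lower at 60 min (3.86 to 5.34), and 99.5% of its counts lay at 1 nucleotide. The end at chr11:84730225 on the minus strand had 20.2, 28.6 and 56.2 CPM and stood 637015 nt from the nearest site of its strand. The end at chr9:124282004 on the minus strand had 8.70, 5.36 and 20.9 CPM.

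Some members of that level were lower at 60 than at 30 min. The end at chr16:24561977 on the plus strand had 29.4 CPM at 30 min, 11.7 at 60 min and 2.38 in input, and was 2.51-fold lower at 60 min than at 30 min (1.94 to 3.30). The end at chr8:88629033 on the plus strand had 73.2, 32.7 and 28.4 CPM, and that at chr17:47907541 on the minus strand had 65.7, 32.2 and 29.0 CPM. These last were higher than input at 30 min, by 2.58-fold and 2.26-fold, and under 2-fold from it at 60 min.

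Genes were named only from general knowledge of the hg19 build, whose gene positions the sites follow, since neither the labels nor the tables name a build. In all, 16 fixed ends could be placed in a gene on its strand in this way, of which DMAC1, EIF2A, ATP5PD, HMGN2, DNAAF5 and RPS10 met the rule for named members and the others were chosen after their values were seen. Several of them lie within the gene and not at its main 3′ end. At 30 min over input, 3 of the 16 were higher, 5 lower and 8 without a call. At 60 min 2 were higher, 9 lower and 5 without a call. They were not a random draw of fixed ends, because well known and strongly expressed genes are the ones whose positions are known.

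Fixed ends placed in genes for ribosomal proteins went different ways, which describes these positions and not the genes as a whole. The end in RPS10, a protein of the small ribosomal subunit, at chr6:34390986 on the minus strand, had 330 counts at 30 min, 775 at 60 min and 2 from the input, or 34.2, 126 and 0.0610 CPM. It was 560-fold over input at 30 min (154 to 4645). Its largest neighbour within 1000 nt held 45 counts, and it is not shown to be the gene's main end. The end in RPS4X, of the same subunit, at chrX:71492480 on the minus strand, had 41, 42 and 347 counts and was 2.49-fold lower than input at 30 min (1.80 to 3.54). It lay 26 nt from a site of 231781 counts, the gene's main end, which spread over more positions, with 39.5% of its counts at the highest. The end in RPL10, of the large subunit, at chrX:153629259 on the plus strand, had 18.5 CPM at 30 min, 49.1 at 60 min and 33.7 in input, under 2-fold from input in both. Of these 3 ends, 1 was higher than input at 30 min.

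For genes of mitochondrial proteins, 5 ends could be named. The end in DMAC1, a factor for assembly of respiratory complex I, at chr9:7798347 on the minus strand, held the most counts of any fixed end, with 410, 252 and 3701 counts. Its levels of 42.5, 41.0 and 113 CPM made it 2.66-fold lower than input at 30 min (2.40 to 2.95) and 2.76-fold lower at 60 min (2.43 to 3.15). The end of ATP5PD, a subunit of the ATP synthase, at chr17:73034955 on the minus strand, had 6.63, 3.41 and 20.2 CPM and was 3.04-fold and 5.91-fold lower. The end in ATP5F1B, the beta subunit of the same enzyme, had 14.5, 15.8 and 9.28 CPM, under 2-fold higher. In ETFA, a subunit of the electron transfer flavoprotein, the levels were 2.28, 1.63 and 3.78 CPM, and in C1QBP, a protein of the mitochondrial matrix, 11.3, 4.71 and 11.3 CPM. These last were called lower than input at 60 min only.

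The other named genes have varied roles. The end of EIF2A, a translation initiation factor, at chr3:150302027 on the plus strand, had 5.80, 2.60 and 25.0 CPM, 4.30-fold lower than input at 30 min (3.28 to 5.75) and 9.60-fold lower at 60 min (5.87 to 16.9). An end in HMGN2, a nucleosome-binding protein, at chr1:26802464 on the plus strand, had 11.4, 9.75 and 27.5 CPM, 2.41-fold lower at 30 min. A site with more counts, 1656 against 1071, lay 667 nt downstream. The log2 ratio of 30 min to input of that larger site was 0.78, above input but under 2-fold, so only the fixed end had a call. The end in DNAAF5, an assembly factor for ciliary dynein, at chr7:826110 on the plus strand, had 24.04, 9.43 and 24.05 CPM, so it equalled input at 30 min and was 2.55-fold lower at 60 min. In MYL6, a myosin light chain, the end rose over input, with 9.95, 16.3 and 2.41 CPM. It lay 25 nt from a site of 56360 counts, just beyond the reach of merging. In EFTUD2, a spliceosomal GTPase, 6.84, 3.25 and 2.72 CPM were found, higher than input only at 30 min.

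The remaining named ends were lower than input at 60 min or within 2-fold of it. In FADS3, of the fatty acid desaturase family, every count lay at 1 nucleotide, with 20.6, 12.2 and 26.6 CPM. The end of BLCAP had 16.7, 10.2 and 17.9 CPM. The end in SUMO2, a small ubiquitin-like modifier, had 5.59, 3.25 and 6.68 CPM.

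Fixed ends mostly stood alone. An end was called isolated when no other site of at least 20 counts lay within 10000 nt on its strand, and 482 of 650 fixed ends (74.2%) were isolated, against 3597 of 23647 other sites (15.2%). The median distance to the nearest such site was 46980 nt for fixed ends and 494 nt for the others. With sites of both strands counted, 412 fixed ends (63.4%) and 2529 others (10.7%) were isolated. Of the fixed ends, 216 (33.2%) had no site within 100000 nt, against 3.14% of the others.

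**Figure D3:**
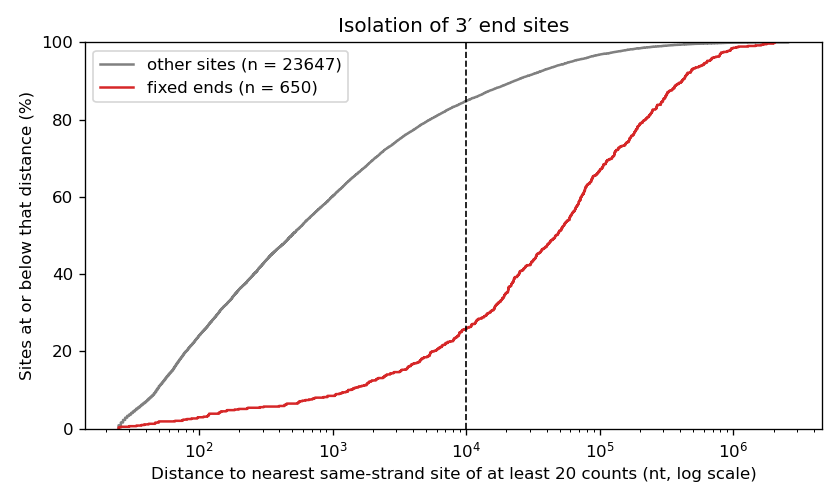
Cumulative percent of sites at or below each distance to the nearest same-strand site of at least 20 counts. Curves are for fixed ends and for other sites of at least 100 counts. By distance class, which is not drawn, the largest share of fixed ends was 40.9% at 10000 to 100000 nt. For other sites it was 36.0% at 100 to 1000 nt.

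Isolation increased with concentration. It held for 27.8% of sites with 80 to 85% at 1 position, 39.7% from 85 to 90%, 64.1% from 90 to 95%, 69.6% from 95 to 99%, and 85.6% of those with every count at 1 position. Among fixed ends of 100 to under 200 counts 75.2% were isolated, and among those of 1000 or more 68.4%. By the log2 ratio of 30 min to input, isolation was 70.6% below -1, 62.5% from -1 to 1, 80.9% from 1 to 4, 74.2% from 4 to 6 and 73.5% at 6 or more, so it had no steady order. The median log2 ratio of 30 min to input was 4.77 for isolated fixed ends and 4.91 for the rest. Sites that were not fixed had 0.76 where isolated and 0.26 where not. The ratios of the fixed ends are partly set by the choice of members, and what underlies these differences was not tested.

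Within 1000 nt of another site lay 55 fixed ends (8.46%), of which 19 lay within 100 nt. The largest neighbour of each had a median of 368 counts and 50.9% at its highest position. It was larger than the fixed end in 31 cases and downstream in 40. The median log2 ratio of 30 min to input was 3.47 for these fixed ends and 0.78 for their neighbours. Of the 16 ends placed in genes, 11 were in this class, as in C1QBP, where a site of 49951 counts lay 136 nt downstream. The nearest site lay 25 nt away in MYL6 and EFTUD2, 26 in RPS4X, 34 in C1QBP and 37 in ETFA. Positions within 24 nt of a larger site were merged into it, which can narrow a smaller site beside it. Whether this made such ends fixed was not tested.

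Counts away from the main nucleotide lay close to it. A second position existed in 483 fixed ends, and the highest such position lay 1 nt upstream in 233, 1 nt downstream in 152 and further off in 98. Ties were given to the more upstream position, which can favour the upstream side in these numbers. Of all counts off the main position, 54.4% lay upstream in fixed ends and 43.8% in other sites, taking the strand of the tables as that of the RNA. In the 353 ends that rose strongly the upstream share was 66.2%, and in the remaining 297 it was 44.8%. The 109 sites with the same rise that were not fixed had 66.4%.

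Fixed ends were found on every nuclear chromosome, 59 of them on chromosome 1 and 59 on chromosome 2. As a share of the sites of a chromosome they ranged, leaving out Y, from 1.98% on chromosome 15 (95% Clopper-Pearson interval 1.11 to 3.24) to 3.65% on chromosome 4 (2.54 to 5.07). The intervals of these extremes overlapped. Chromosome Y held 10 sites, of which 3 were fixed. Also without Y, the number per 10 Mb ran from 1.13 on chromosome 13 to 5.24 on chromosome 19, and chromosome 19 also held the most sites of all kinds per 10 Mb, 216.7 against 42.6. The median log2 ratio of 30 min to input was lowest on chromosomes 8, at 2.42, and X, at 2.84, and highest on chromosome 22, at 5.38.

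**Figure D4:**
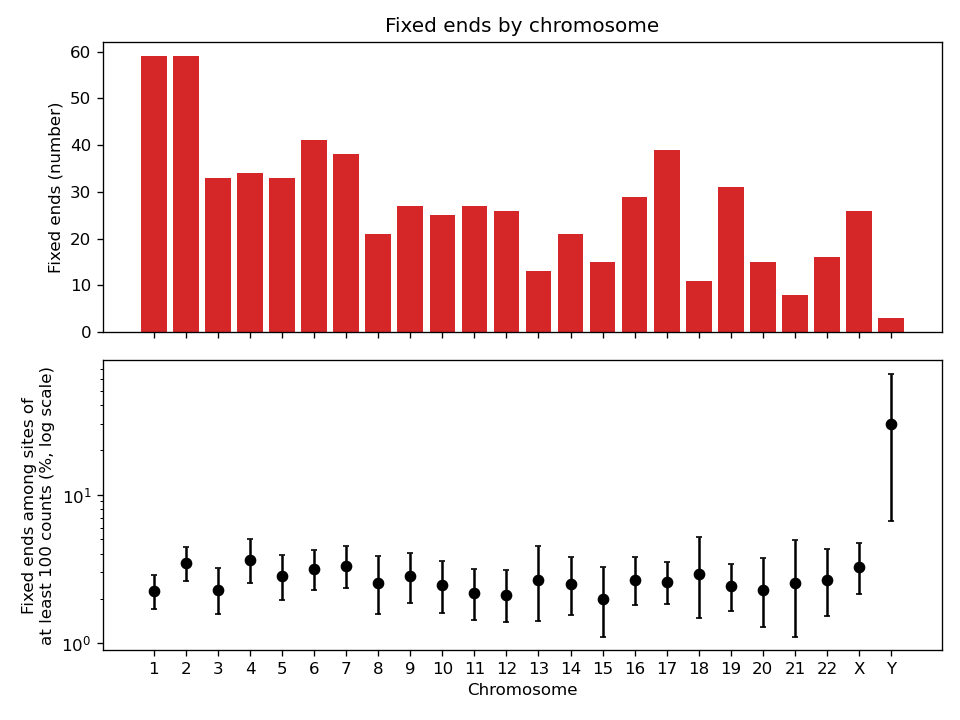
Percent of nuclear sites with at least 100 counts that were fixed ends, by chromosome, with 95% Clopper-Pearson intervals. Apart from Y, with 3 of 10 sites, the chromosomes lie between 1.98 and 3.65%.

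Fixed ends rarely lay near each other. Of 2278 windows of 1 Mb with sites, 545 held fixed ends, 453 of them a single one and 81 a pair. There were 9 windows with 3 and 2 windows with 4, the latter at 26000001 to 27000000 of chromosome 1 and 47000001 to 48000000 of chromosome 11. Only 2 pairs lay within 10000 nt on a strand, and 7 on either strand.

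At chr9:16109733 on the plus strand the counts were 49 at 30 min, 150 at 60 min and 4 for the input, and 916 nt away, at chr9:16110649, there were 135, 153 and 9. At chr22:33744252 on the plus strand there were 62, 167 and 5 counts, and 4495 nt away, at chr22:33748747, there were 67, 125 and 8. All 4 ends were higher than input in both labelled libraries. The chromosome 9 ends differed between the labelled libraries, at 4.80-fold and 1.78-fold for 60 over 30 min. On opposite strands there were 5 pairs, and in 3 of them both ends were higher than input at 30 min. In another the end of EIF2A, lower than input, lay 3204 nt from the minus-strand end at chr3:150305231, which was 7.31-fold higher at 30 min. In the last, on chromosome 11, the plus-strand end at 47791401 was higher and the minus-strand end at 47799815 had no call at 30 min.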

How the data were processed

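The deposited values were raw counts of reads at single positions with strand, 1 table per library, without normalization by the authors. The submitters' processing notes list Bowtie and cutadapt. Their versions, the build and the treatment of reads with several matches were not given in the sources used here. Library totals were 14159691 counts (4sU 30 min), 8926568 (4sU 60 min) and 35410931 (input), per the deposited tables. The protocol names no molecular identifiers.

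The members and lists were chosen with earlier results of these data known. Sites were built greedily from the highest position with Python 3.11.15, numpy 2.4.6, pandas 2.3.3 and scipy 1.17.1, and figures drawn with matplotlib 3.10.9. The merging was tested on simulated data. The mitochondrial genome was kept apart. Ratios of CPM carry exact 95% intervals. Alternative scalings were all counts, median of ratios and TMM (edgeR 4.0.16, R 4.3.3). Named members were the 10 of highest mean CPM, the 5 highest and 5 lowest ratios of each comparison among members of at least 10 mean CPM, the closest groups, and members at the threshold. Only 2 same-strand groups within 10000 nt existed. A gene was to be named where hg19 knowledge places the end at its 3′ end; ends within genes were added after their values were seen. Positions are 1-based. The GRCh38.p14 gene table ends before 263 of the positions on chromosome 1, so its coordinates were not used.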

Additional observations from a re-analysis of the deposited data

Results flagged for a closer look

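Mitochondrial sites were outside the comparisons. There, 5 of 521 sites with at least 100 counts (0.960%) held 90% or more at 1 position, with 450 counts at 30 min, 262 at 60 min and 709 for the input. Per 1000000 counts of the whole library this was 31.8 in 4sU 30 min and 29.4 in 4sU 60 min, above the 20.0 of input. Per 1000000 mitochondrial counts the order turned, with 99.8 at 30 min, 94.4 at 60 min and 268.3 for the input, so the direction depends on the total used.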

How the results depend on the processing

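No paired analysis was possible because each group had 1 library, so leaving out a replicate within a group was not possible either. A number of members counted as moved beyond 1.5 times the reported one, and a share or median when outside the 95% counting interval of the reported value, which is narrow for shares of nuclear counts. Of 183 alternative values, 75 stayed within this, 106 moved and 2 changed sign. The median log2 ratio ran from 0.20 to 5.46 at 30 min over input, from -0.15 to 7.47 at 60 min over input and from -0.30 to 1.95 at 60 over 30 min. The number of fixed ends was 1016 at 80% or more, 1256 at 50 counts, 103 at 500 counts and 285 without 4sU 60 min. Chosen in 1 library, an alternative added after seeing the data, it was 167 from 4sU 30 min, 335 from 4sU 60 min and 130 from input.

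The percent of nuclear counts in fixed ends, in the order 30 min, 60 min and input, was 0.732, 1.72 and 0.180 with merging within 10 nt. It was 0.668, 1.66 and 0.149 within 50 nt, 2.28, 3.55 and 3.46 at 80%, and 0.530, 1.38 and 0.111 at 95%. It was 0.809, 2.01 and 0.180 at 50 counts and 0.333, 0.738 and 0.0946 at 500 counts. With members chosen by summed CPM it was 0.671 at 30 min and 0.146 in input. At 80% the input share was above that of 30 min.

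The percent of fixed ends higher than input was 81.5 at 30 min and 79.3 at 60 min with 10 nt merging, and 55.7 were higher at 60 than at 30 min. At 80% these were 69.3, 65.8 and 43.3, with 10.9, 14.9 and 7.38 lower. At 500 counts, 77.7 were higher at 60 min over input and 56.3 at 60 over 30 min. For 60 over 30 min, median-of-ratios scaling gave 66.3 higher and 0.769 lower, and TMM gave 66.0 and 1.08. At 4-fold, 78.3, 76.0 and 31.1 were higher and 3.38, 2.92 and 0.615 lower in the 3 comparisons. At a mean of 10 CPM, 93.3, 90.9 and 70.2 were higher and 2.78, 3.17 and 1.98 lower.

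The medians moved to 4.62, 6.47 and 1.33 with 10 nt merging and to 3.43, 3.89 and 0.65 at 80%. At 50 counts they were 4.43 and 6.30 over input. At 500 counts they were 6.33 at 60 min over input and 1.26 at 60 over 30 min. Scaling by all counts, with the mitochondrial ones included, gave 4.39 and 6.31 over input. For 30 min over input and 60 over 30 min, median-of-ratios scaling gave 4.45 and 1.89, and TMM gave 4.46 and 1.83. Isolation was 67.5% with 10 nt merging and 59.1% at 80%. It was 91.5% within 1000 nt, 33.2% within 100000 nt, 81.7% from sites of at least 100 counts and 63.4% on either strand.

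Choosing members in fewer libraries, values added after seeing the data, changed the ratios most. In the order 30 min over input, 60 min over input and 60 over 30 min, the medians were 2.33, 2.27 and 0.33 without 4sU 60 min and 5.30, 7.17 and 1.78 without input. Without 4sU 30 min the last was 1.71. Chosen in input alone they were 0.20, -0.15 and -0.30, so the last 2 changed sign. Chosen in 4sU 60 min alone they were 5.46, 7.47 and 1.95, and in 4sU 30 min alone the first was 5.11 and the last 1.15. The percent higher was 69.1, 64.2 and 35.4 without 4sU 60 min, 96.4, 95.2 and 73.2 without input, and 80.5 and 78.6 over input without 4sU 30 min. It was 94.0, 89.8 and 52.1 chosen in 4sU 30 min alone, 97.6, 96.4 and 83.0 in 4sU 60 min alone, and 33.8, 26.2 and 5.38 in input alone.

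The input had the lowest counts at the members, so its 39 counts of 0 and the many below 8 set the width of the largest ratios. The cause of these movements was not tested.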
